A study of Homo sapiens with 9 samples.

Results

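A set of 7 genes was followed: 6 sodium-proton exchangers of the SLC9 family (SLC9A2, SLC9A3, SLC9A5, SLC9A7, SLC9A8 and SLC9A9) and SLC9A3R1, the scaffold protein also called NHERF1 or EBP50. They were taken by gene name from a table of 58735 genes, and all 7 names were found once. They were chosen by gene family after fold changes between the hairpin and scramble libraries were known, among them that of SLC9A2. The hairpin comparisons of the 7 genes are therefore given as a description, with no p-value. Gene expression was measured by RNA sequencing of poly-A RNA from OVCAR3, an established human ovarian cancer cell line, 72 h into culture. The groups, of 3 libraries each, were cells with a scramble hairpin (genotype labelled WT) and cells with 1 of 2 short hairpin RNAs against GPX3 (genotype labelled GPX3 knock-down), numbered 76 and 78 and called sh76 and sh78 here. GPX3 encodes a secreted glutathione peroxidase, and the series was made to study its role in ovarian cancer cells. The labels do not say whether replicates came from separate cultures or transductions, so p-values measure only the spread between these samples.

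SLC9 exchangers move sodium ions one way across a membrane and protons the other way, and so raise cytosolic pH or set the pH inside organelles. SLC9A2 and SLC9A3 work at the plasma membrane of epithelial cells, while SLC9A7 and SLC9A8 are known from the Golgi apparatus and SLC9A9 from endosomes. SLC9A5 is a plasma membrane and recycling-endosome exchanger known mainly from brain. SLC9A3R1 carries PDZ domains that hold SLC9A3 and other membrane proteins, and it binds the actin linkers ezrin, radixin and moesin.

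Library totals ran from 14652965 to 21327562 counts, so that 1 CPM (counts scaled by library size) stood for 14.7 to 21.3 counts before the TMM factors that the CPM values below include. GPX3 had 173, 109 and 117 CPM in scramble replicates 1 to 3, 56.8, 55.2 and 55.5 CPM with sh76, and 35.3, 28.4 and 28.3 CPM with sh78, in accord with the labels. All 9 markers of ovarian carcinoma were above the count filter, with a summed level of 11852 to 12648 CPM with scramble, 10698 to 11578 with sh76 and 9820 to 10376 with sh78. The 9 did not move together. With sh78 KRT8 had a mean of 3878 CPM (5562 with scramble) and KRT18 1579 (2177). WT1, MSLN, EPCAM and CDH1 were lower too. PAX8 (960 against 902 CPM), KRT7 (1434 against 1286) and MUC16 (1620 against 1555) were higher with sh78. Of 6 fibroblast markers 2 passed the filter (summed level 27.6 to 39.2, 30.8 to 55.1 and 34.7 to 47.2 CPM in the order scramble, sh76 and sh78, as below). Most of that sum was COL1A1, at 25.5 to 44.5 CPM. In sh76 replicate 2 COL1A2 had 142 counts, COL3A1 53, DCN 11 and LUM 3. In sh76 replicates 1 and 3 COL1A2 had 20 and 26, COL3A1 0 and 1, DCN 3 and 0, and LUM 0 in both. Across scramble and sh78 libraries COL1A2 had at most 51 counts and COL3A1 at most 4. Of 5 immune markers 2 passed (1.16 to 2.58, 2.22 to 2.58 and 2.41 to 3.07 CPM), and MS4A1 had 0 counts in all 9 libraries. Of 4 endothelial markers 3 passed (17 to 19.9, 18.1 to 24.2 and 23.1 to 31.9 CPM). Among these, KDR had means of 9.39, 13.7 and 18.8 CPM, VWF 8.25, 7.27 and 7.95, and CDH5 0.399, 0.408 and 0.816. PECAM1, below the filter, had 0.347, 0.36 and 0.198 CPM. The part of these marker levels in the results below was not tested, and in bulk RNA fewer cells of a type and less RNA per cell cannot be told apart.

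In scramble cells the 7 genes spanned a wide range of levels per length, given in the authors' FPKM (fragments scaled by exon length and library size). SLC9A3R1 was highest at 39.7 ± 2.4 FPKM (SD, n = 3), followed by SLC9A8 at 8.51 ± 0.574, SLC9A7 at 1.97 ± 0.208, SLC9A2 at 0.878 ± 0.0993 and SLC9A9 at 0.397 ± 0.0712 FPKM. SLC9A5 (0.257 ± 0.0196 FPKM) and SLC9A3 (0.246 ± 0.0211 FPKM) came last, and their scramble libraries overlapped, whereas the libraries of each other pair of neighbours in this order did not. The order of the lower genes changed between groups. With sh76, SLC9A2 reached 1.66 ± 0.528 FPKM and overlapped SLC9A7 at 2.04 ± 0.252 FPKM, and SLC9A3 at 0.515 ± 0.0663 FPKM overlapped SLC9A9 at 0.499 ± 0.228 FPKM. With sh78, SLC9A2 (0.439 ± 0.11 FPKM), SLC9A9 (0.422 ± 0.212 FPKM) and SLC9A3 (0.373 ± 0.0551 FPKM) overlapped one another, and SLC9A5 lay below them in level at 0.164 ± 0.0547 FPKM, with no library overlapping those 3 genes.

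All 7 genes passed the count filter. A gene counts as called where its edgeR adjusted p was below 0.05. With sh76 against scramble 3 of the 7 were called, where 3.58% of the 17023 genes tested were: SLC9A2 and SLC9A3 were higher (1.43% of all genes) and SLC9A3R1 was lower (2.16%). With sh78, 2 were called (SLC9A2 and SLC9A3R1, both lower), where 4.41% of all genes were called, 1.85% higher and 2.56% lower. Between the hairpins 1 was called, SLC9A2, which was lower with sh78, where 3.7% of all genes were called, 1.97% higher and 1.72% lower. Groups that did not overlap were counted as well. With sh76, 2 of the 7 lay wholly above scramble and 1 wholly below (10.8% and 11.7% of all genes, 22.5% together). With sh78, 1 lay above and 3 below (10.2% and 11.2%, 21.5% together). Between the hairpins 0 of the 7 were wholly higher with sh78 and 3 wholly lower (10.9% each, 21.8% together). The median log2 fold change of the 7 genes was 0.06, −0.04 and −0.29 in these comparisons, against 0.01, 0.01 and 0.00 over all genes tested. Nothing is read from these counts, since the genes were chosen with the values known. The comparisons with scramble share their 3 control libraries. With the replicate number as a block, the same 3, 2 and 1 genes were called, while the shares over all genes rose to 20.4%, 19.9% and 18.3%.

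**Figure D1:**
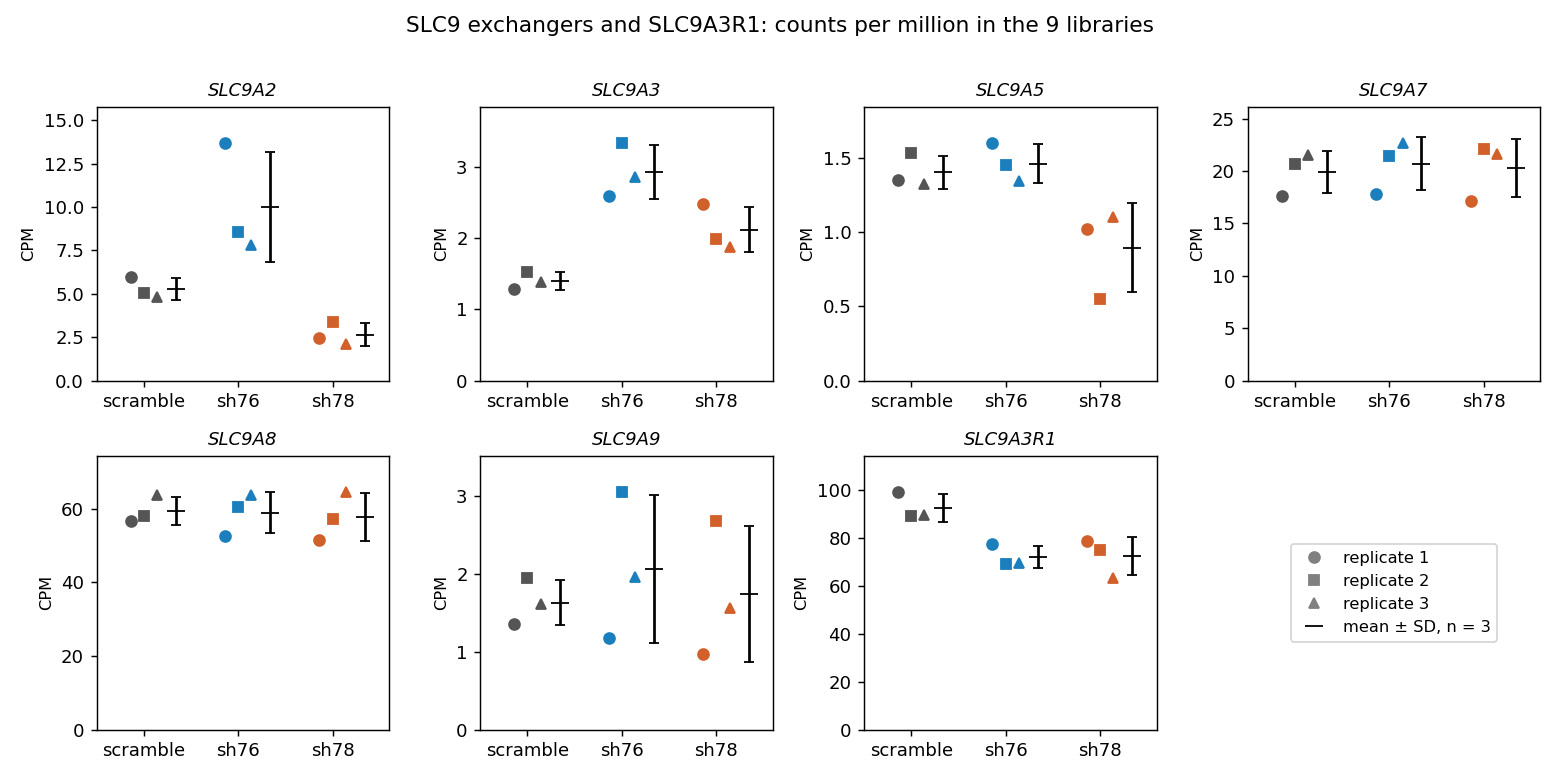
Level of each of the 7 genes in CPM (linear axes from 0) by group. Points are the 9 libraries, with a shape for each replicate number, and the bar beside each group is the mean with its SD over 3 libraries. SLC9A2 is high with sh76 (7.83 to 13.7 CPM) and low with sh78 (2.08 to 3.37 CPM), and SLC9A3R1 is lower with each hairpin (63.3 to 78.6 CPM) than with scramble (88.9 to 99.2 CPM).

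SLC9A2 (ENSG00000115616, chromosome 2, 102619707 to 102711318, plus strand, GRCh38, 15 merged exons) moved in opposite directions with the hairpins. It had 93, 86 and 84 counts in scramble replicates 1 to 3, 222, 177 and 164 with sh76, and 46, 49 and 32 with sh78. In CPM these were 5.98, 5.05 and 4.82 with scramble, 13.7, 8.58 and 7.83 with sh76, and 2.48, 3.37 and 2.08 with sh78. All 3 sh76 libraries lay above all 3 scramble libraries, and all 3 sh78 libraries lay below them. The log2 fold change was 0.92 (SE 0.22) with sh76, a level 1.89 times that of scramble, and −1.0 (SE 0.25) with sh78, a level 0.499 times that of scramble. Between the hairpins the log2 fold change was −1.92 (SE 0.24), and the same-numbered pairs gave −2.47, −1.35 and −1.91. The sh76 call was lost without scramble replicate 2 (0.88) or 3 (0.85) or sh76 replicate 1 (0.64) or 2 (1.02). The sh78 call was lost without scramble replicate 1 (−0.91), 2 (−1.04) or 3 (−1.07), sh76 replicate 2 (−1.0) or sh78 replicate 1 (−0.96) or 3 (−0.86). On log2(FPKM + 1), which understates changes of low genes, neither was called (0.49 and −0.39).

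SLC9A3 (ENSG00000066230, chromosome 5, 470458 to 524332, minus strand), the exchanger whose tail SLC9A3R1 binds, was higher with each hairpin at a low level. Its counts were 20, 26 and 24 with scramble, 42, 69 and 60 with sh76, and 46, 29 and 29 with sh78. In CPM these were 1.29, 1.53 and 1.38, then 2.59, 3.34 and 2.86, then 2.48, 1.99 and 1.88. No library of a group overlapped one of another group, so the order of groups was scramble, sh78, sh76. The log2 fold change was 1.07 (SE 0.24) with sh76, a level 2.1 times that of scramble, 0.60 (SE 0.25) with sh78, which was not called, and −0.46 (SE 0.23) between the hairpins, also not called. The sh76 call was lost without any scramble replicate (1.01, 1.13 and 1.05 without replicates 1, 2 and 3) and without sh76 replicate 2 (0.96) or 3 (1.09), and the value was 0.28 on log2(FPKM + 1). Part of the SLC9A3 exons lies where other genes are annotated: 14.9% of its exon length overlaps exons of EXOC3 on the opposite strand, 14.7% those of SLC9A3-AS1, also opposite, and 41.9% those of PP7080 on the same strand. The libraries do not mark strand, so reads shared with the opposite-strand genes cannot be told apart. Reads shared with PP7080 could not be separated by strand in any case. SLC9A3-AS1, an antisense RNA, had 4.89 ± 1.51, 7.56 ± 0.9 and 6.04 ± 1.71 CPM in scramble, sh76 and sh78 cells (SD, n = 3), and its log2 fold changes, 0.63 and 0.31, were not called (edgeR adjusted p 0.19 and 0.601). EXOC3, an exocyst subunit gene, had 77.5 ± 7.14, 78.8 ± 2.42 and 88.7 ± 10.7 CPM in the same order and was not called (edgeR adjusted p 0.933 and 0.281), and PP7080 had 0 to 10 counts. The part of these genes in the SLC9A3 difference was not tested.

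SLC9A5 (ENSG00000135740, chromosome 16, 67237683 to 67272190, plus strand) was the lowest of the 7 in counts. It had 21, 26 and 23 counts with scramble, 26, 30 and 28 with sh76, and 19, 8 and 17 with sh78. Its scramble and sh76 libraries overlapped (1.32 to 1.6 CPM together), and the sh78 libraries lay below both (1.02, 0.55 and 1.1 CPM). Its log2 fold change with sh78 was −0.63 (SE 0.32), which was not called, and with sh76 it was 0.06 (SE 0.30). The 8 counts of sh78 replicate 2 have an exact Poisson 95% interval of 3.45 to 15.8 and the 19 of replicate 1 one of 11.4 to 29.7. Such an interval covers the counting error of 1 library only and does not measure the difference from scramble. The part of depth in that difference was not tested. Exons of FHOD1, a formin gene on the opposite strand with 366 to 481 counts, overlap 10.5% of its exon length.

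None of the 3 organelle exchangers was called with a hairpin. SLC9A8 (ENSG00000197818, chromosome 20, 49812713 to 49892242, plus strand) had 56.6, 58 and 63.7 CPM with scramble, 52.7, 60.4 and 63.7 with sh76, and 51.5, 57.2 and 64.6 with sh78. Its 3 groups overlapped over nearly their whole range. Its log2 fold changes were −0.01 and −0.04 (SE 0.10 each). SLC9A7 (ENSG00000065923, chromosome X, 46599252 to 46759172, minus strand) had 17.6, 20.7 and 21.5 CPM with scramble, 17.8, 21.4 and 22.7 with sh76, and 17.1, 22.1 and 21.6 with sh78. Its log2 fold changes were 0.05 and 0.02 (SE 0.13 each), and its groups overlapped too. Its processed copy SLC9A7P1 had 64 to 166 counts, and reads of near-identical copies can be split between them. SLC9A9 (ENSG00000181804, chromosome 3, 143265222 to 143848531, minus strand) was low and uneven among replicates: 1.35, 1.94 and 1.61 CPM with scramble, 1.17, 3.05 and 1.96 with sh76, and 0.97, 2.68 and 1.56 with sh78. Its groups overlapped, though the sh78 library was lower than the sh76 library in all 3 same-numbered pairs (−0.27, −0.19 and −0.33 on the log2 scale). Its log2 fold changes of 0.35 (SE 0.39) and 0.06 (SE 0.40) were the least precise of the 7.

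SLC9A3R1 (ENSG00000109062, chromosome 17, 74748652 to 74769353, plus strand, 6 merged exons) was lower by the same amount with each hairpin. It had 99.2, 88.9 and 89.5 CPM with scramble, 77.3, 69.1 and 69.7 with sh76, and 78.6, 74.9 and 63.3 with sh78. Its lowest scramble library (88.9 CPM) was above its highest hairpin library (78.6 CPM), and the hairpin groups overlapped each other. The log2 fold change was −0.36 (SE 0.09) with each hairpin, levels of 0.778 and 0.782 times that of scramble, and 0.01 (SE 0.09) between the hairpins. The same-numbered pairs gave −0.36, −0.36 and −0.36 for sh76 and −0.34, −0.25 and −0.50 for sh78. Each call was lost on leaving out 1 of several libraries, in fits without the replicate block. For sh76 these were scramble replicates 1 (−0.31), 2 (−0.40) and 3 (−0.39) and sh76 replicates 2 (−0.33) and 3 (−0.34). For sh78 they were scramble replicates 1 (−0.30), 2 (−0.39) and 3 (−0.38), sh76 replicate 2 (−0.36) and sh78 replicates 2 (−0.38) and 3 (−0.27).

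**Figure D2:**
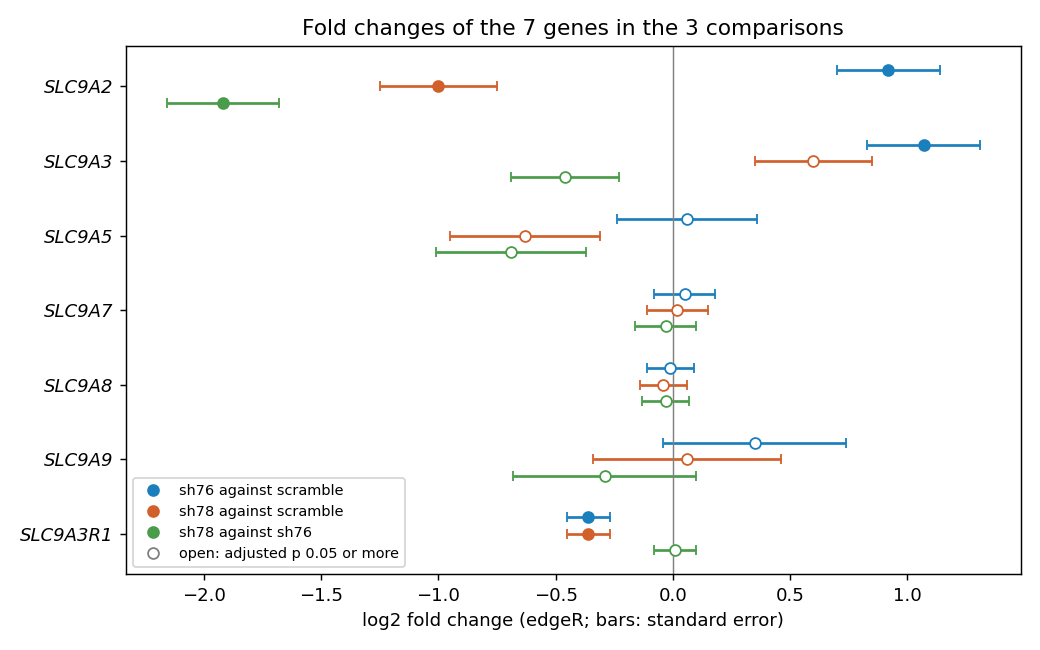
Log2 fold change of the 7 genes (x axis, edgeR) in the 3 comparisons, with bars of 1 standard error. Filled points passed an adjusted p of 0.05 over all genes tested. SLC9A2 points to the right for sh76 (0.92) and to the left for sh78 (−1.0), SLC9A3R1 is at −0.36 for each hairpin, and SLC9A7 and SLC9A8 lie within 0.05 of 0 in each comparison.

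A measure that played no part in choosing the genes was the replicate number, which the labels give as 1 to 3 in each group. In a fit with group and replicate number together, 5 of the 7 genes differed between the replicate numbers (edgeR, adjusted p under 0.05), where 28.8% of all genes tested did. SLC9A8 had a mean over the 3 groups of 53.6, 58.5 and 64 CPM in replicates 1, 2 and 3 (edgeR adjusted p 0.00205), and SLC9A7 had 17.5, 21.4 and 21.9 CPM (edgeR adjusted p 0.00614). SLC9A9 had 1.16, 2.56 and 1.71 CPM (edgeR adjusted p 0.00525), and its replicate 1 library was the lowest in all 3 groups. SLC9A3R1 went the other way, with 85, 77.6 and 74.2 CPM (edgeR adjusted p 0.0114), as did the means of SLC9A2 with 7.38, 5.66 and 4.91 CPM (edgeR adjusted p 0.0412). That order did not hold for SLC9A2 with sh78 (2.48, 3.37 and 2.08 CPM), and its highest library was sh76 replicate 1 (13.7 CPM). For SLC9A3R1 it held only with sh78 (78.6, 74.9 and 63.3 CPM). With scramble (99.2, 88.9 and 89.5 CPM) and sh76 (77.3, 69.1 and 69.7 CPM) its replicates 2 and 3 were close. SLC9A3 and SLC9A5 were not called (edgeR adjusted p 0.861 and 0.909). On log2(FPKM + 1) SLC9A8 and SLC9A9 were still called (limma adjusted p 0.0318 and 0.0347), but SLC9A7, SLC9A3R1 and SLC9A2 were not (limma adjusted p 0.072, 0.0862 and 0.295). Across the 9 libraries the organelle exchangers had a Pearson r of log2 CPM of 0.83 for SLC9A7 with SLC9A8, 0.79 for SLC9A7 with SLC9A9 and 0.50 for SLC9A8 with SLC9A9. SLC9A2 with SLC9A5 had 0.61, and SLC9A3 with SLC9A3R1 had −0.73. The remaining pairs lay between −0.47 and 0.33. The hairpin differences of SLC9A3 and SLC9A3R1 enter their r, and those of SLC9A2 and SLC9A5 enter theirs, so neither is a separate result. How r is spread over pairs of other genes was not examined. These are descriptions over 9 libraries that share groups and replicate numbers.

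Of the 7 other SLC9 genes, 4 passed the count filter, and none (0) was called by edgeR with either hairpin or between them. At an unadjusted p under 0.05 there were 0, 1 and 2 for sh76, sh78 and sh78 against sh76. Over all 17023 genes these were 2959, 2983 and 2768. DESeq2 and limma on log2(FPKM + 1) each called 0 of the other SLC9 genes. The block called 0, 1 and 2 of these 4, against 20.4%, 19.9% and 18.3% of all genes. These were SLC9A4, described next, with sh78 and between the hairpins, and SLC9B2 between the hairpins. SLC9B2, a sodium-proton exchanger of the SLC9B branch singled out after its values were seen, had 3.15 ± 1.2, 2.59 ± 0.573 and 3.97 ± 0.184 CPM in scramble, sh76 and sh78 cells (SD, n = 3). Between the hairpins it differed by 0.61 on the log2 scale (edgeR adjusted p 0.275, with the block 0.0278). SLC9B1, SLC9C1 and SLC9C2 were below the filter.

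SLC9A4, a plasma membrane exchanger of the stomach and other epithelia, lies 85735 bases before SLC9A2 on the same strand (chromosome 2, 102473303 to 102533972). It had 51, 40 and 35 counts with scramble, 65, 56 and 45 with sh76, and 25, 21 and 25 with sh78. In CPM these were 3.28, 2.35 and 2.01, then 4.01, 2.71 and 2.15, then 1.35, 1.44 and 1.62. The sh78 libraries lay below all others, and the scramble and sh76 libraries overlapped. Its log2 fold changes were 0.21 (SE 0.27) with sh76, −0.79 (SE 0.30) with sh78 and −0.99 (SE 0.29) between the hairpins (edgeR adjusted p 0.762, 0.176 and 0.0808). The block called the last pair (edgeR adjusted p 0.029 and 0.0042). SLC9A2 and SLC9A4 had a Pearson r of 0.87 over the 9 libraries, which put SLC9A4 at place 65 of the 13708 protein-coding genes ranked by likeness to SLC9A2. The hairpin differences of both genes enter this r, so neither it nor the ranking is a separate result. The first of that ranking were CALCOCO2 (r 0.97), C6orf106 (0.95) and C1orf216 (0.95), none of which is on chromosome 2. They differed far less between the hairpins than SLC9A2, by −0.21, −0.24 and −0.46 on the log2 scale. The genes most like SLC9A3R1 were SCAND1 (r 0.98), AARS (0.97) and RAB39B (0.97). Their log2 fold changes were −0.31, −0.68 and −0.77 for sh76, and those for sh78 were −0.31, −0.65 and −0.64. Here too the hairpin differences enter r.

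The neighbours of SLC9A2 were examined after its values and those of SLC9A4 had been seen. Within 500000 bases on each side lay 18 other genes, of which 5 passed the count filter, all protein-coding. Before SLC9A2, IL1R1, the interleukin-1 receptor gene, had means of 147, 124 and 78.2 CPM in the 3 groups, differing from scramble by −0.24 and −0.91 on the log2 scale (edgeR adjusted p 0.199 and 0.000203). IL18R1, an interleukin-18 receptor gene, had 17.1, 12.7 and 10.5 CPM and changes of −0.44 and −0.71 (edgeR adjusted p 0.194 and 0.0339). After SLC9A2, MFSD9, 4522 bases away, had 20.1, 21.8 and 20.7 CPM, and TMEM182 had 11.4, 10.7 and 9.62 CPM. Neither was called with a hairpin (edgeR adjusted p 0.708 and 0.901 for MFSD9, 0.83 and 0.5 for TMEM182). Between the hairpins IL1R1 differed by −0.67 on the log2 scale (edgeR adjusted p 0.0021), and IL18R1 by −0.28 (edgeR adjusted p 0.489).

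**Figure D3:**
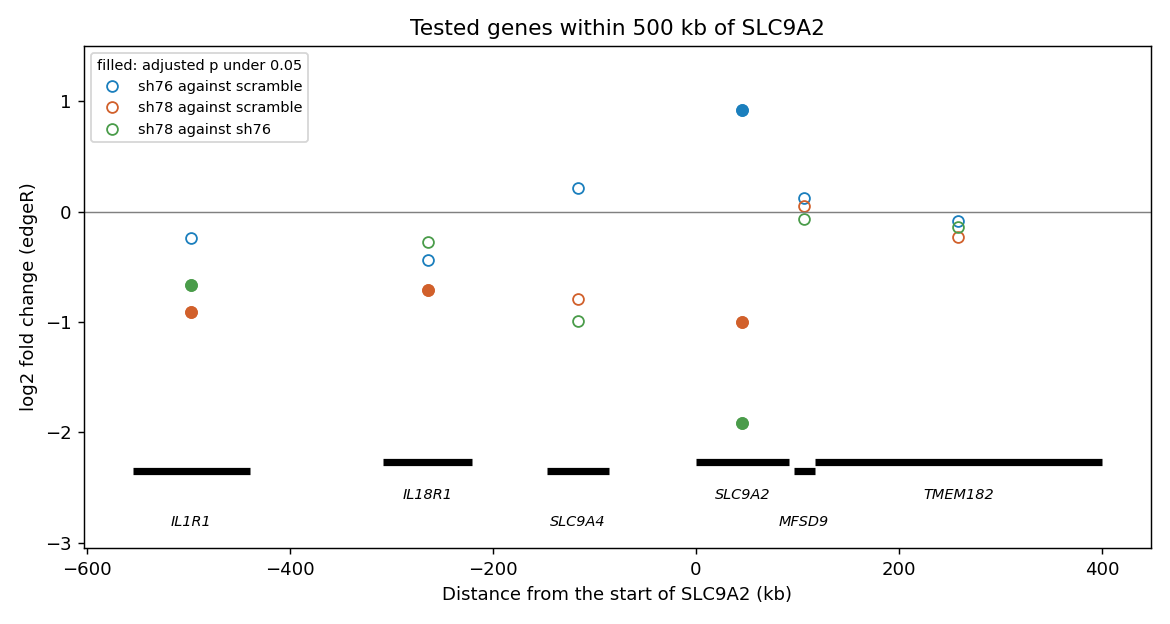
Log2 fold changes (y axis, edgeR) of the 6 tested genes within 500000 bases of SLC9A2 against distance from its start in kb (x axis). Bars at the bottom show the extent of each gene, each point stands at a gene's centre, and filled points passed an adjusted p of 0.05. For sh78 against scramble the points run from −0.91 at IL1R1 and −1.0 at SLC9A2 to 0.05 at MFSD9 next to it.

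The 250 bases before the RefSeq transcription start of SLC9A2 and of its neighbour SLC9A4 are shown because both genes were at their lowest with sh78, with those of SLC9A3R1 (NHERF1 in RefSeq) as the most abundant of the 7. They lie at chr2:102619303-102619552, chr2:102472976-102473225 and chr17:74748378-74748627 on the plus strand of GRCh38.p14. Capitals mark matches on either strand to a GC box (GGGCGG) or a CCAAT box (CCAAT).
SLC9A2: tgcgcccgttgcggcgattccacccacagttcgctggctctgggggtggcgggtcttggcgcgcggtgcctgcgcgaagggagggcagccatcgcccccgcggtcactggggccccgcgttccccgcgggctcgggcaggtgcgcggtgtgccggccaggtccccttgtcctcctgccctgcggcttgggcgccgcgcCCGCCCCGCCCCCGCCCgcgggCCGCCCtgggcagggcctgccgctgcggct
SLC9A4: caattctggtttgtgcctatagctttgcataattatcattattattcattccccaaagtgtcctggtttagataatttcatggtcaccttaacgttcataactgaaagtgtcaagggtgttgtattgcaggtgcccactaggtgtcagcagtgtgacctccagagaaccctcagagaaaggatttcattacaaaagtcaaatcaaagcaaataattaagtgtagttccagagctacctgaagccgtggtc
SLC9A3R1: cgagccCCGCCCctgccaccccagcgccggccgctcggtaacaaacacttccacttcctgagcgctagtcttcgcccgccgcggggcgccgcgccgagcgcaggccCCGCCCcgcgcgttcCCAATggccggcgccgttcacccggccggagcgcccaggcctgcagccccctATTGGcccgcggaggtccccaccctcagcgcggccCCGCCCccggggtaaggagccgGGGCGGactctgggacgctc
The windows of the neighbouring exchangers had little in common. SLC9A2 had 79.6% G and C with 34 CpG pairs and 4 GC boxes, some of them overlapping, whereas SLC9A4 had 40.4% with 2 CpG pairs and no match. SLC9A3R1 had 77.6%, 35 CpG pairs, 4 GC boxes and 2 CCAAT boxes. The median of the 35114 windows of this length was 58% with 11 CpG pairs, 42.6% of them held a GC box and 32% a CCAAT box. An E-box (CACGTG) was found on either strand in 6.3% of all windows. For a TATA box (TATAAA) this was 10.7%. An ATF4 composite element (TGATGNAA) was in 3.1%, and an antioxidant response element (TGACNNNGC) in 10.9%. None of these 4 motifs was in the 3 printed windows. Of the other members, SLC9A9 had 1 match to the ATF4 composite element and SLC9A5 had 1 E-box. A match is a description of the letters, not a site.

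Genes that act beside the exchangers were taken from 5 further lists. Of 14 SLC9 partners and regulators 11 were tested, with a median log2 fold change of 0.08 with sh76 and 0.02 with sh78, and 1 (9.09%) was called with each hairpin, MSN, against 3.58% and 4.41% of all genes. MSN encodes moesin, an actin linker that binds SLC9A3R1. It had 235, 245 and 279 CPM with scramble, 327, 320 and 364 with sh76, and 313, 359 and 330 with sh78. Its hairpin libraries were all higher than its scramble libraries, opposite to SLC9A3R1, and the differences were 0.41 (SE 0.08) and 0.40 (SE 0.08) on the log2 scale (edgeR adjusted p 0.00945 and 0.00858). The calls were lost without scramble replicate 2 (0.38 and 0.37), and for sh78 also without sh78 replicate 2 (0.34). EZR, the ezrin gene and the most abundant of the list at 261 FPKM in scramble cells, had 877 ± 85.7, 977 ± 80.5 and 794 ± 58.7 CPM (SD, n = 3) and was not called (edgeR adjusted p 0.359 and 0.416). With the block EZR was called in both (log2 fold changes 0.16 and −0.14, edgeR adjusted p 0.00289 and 0.0075), and 4 (36.4%) and 2 (18.2%) of the list were called in all, against 20.4% and 19.9% of all genes. Between the hairpins EZR differed by −0.30 (edgeR adjusted p 0.0666, with the block 1.45e-07).

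Subunits of the V-ATPase, the pump that acidifies the organelles where SLC9A7, SLC9A8 and SLC9A9 work, were examined next. Of 23 tested, 2 (8.7%) were called with sh76 and 1 (4.35%) with sh78, against 3.58% and 4.41% of all genes, with medians of −0.01 and 0.01. With sh76, 3 subunits lay wholly above scramble and 2 wholly below (10.8% and 11.7% of all genes). With sh78, 5 lay wholly above and 3 wholly below (10.2% and 11.2% of all genes). ATP6V1C2, an isoform of the C subunit, had 4.05, 2.99 and 4.25 CPM with scramble, 9.25, 11.6 and 10.5 with sh76, and 3.34, 3.37 and 3.38 with sh78. Its sh76 libraries lay apart from all others, and with sh76 it differed from scramble by 1.48 on the log2 scale (SE 0.17, edgeR adjusted p 0.000416). With sh78 the difference was −0.16 and was not called (SE 0.19, edgeR adjusted p 0.738). ATP6V0B, of the membrane sector, fell from 64.2 ± 2.89 CPM to 52.1 ± 1.52 and 49.6 ± 1.74 (SD, n = 3), by 0.30 and 0.37 on the log2 scale (edgeR adjusted p 0.03 and 0.00808). Its sh76 call was lost on leaving out any 1 scramble or sh76 library, with values from −0.33 to −0.27. ATP6V1F, the highest per length at 65.2 FPKM in scramble cells, was not called (edgeR adjusted p 0.643 and 0.796). The block called 4 (17.4%) with each hairpin, against 20.4% and 19.9% of all genes.

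Among 8 tested genes for lactate transport and carbonic anhydrases, SLC16A1 fell with each hairpin and no other was called (1 of 8 is 12.5%, against 3.58% and 4.41% of all genes). SLC16A1 encodes MCT1, which moves lactate together with a proton. It had 211, 221 and 216 CPM with scramble, 126, 135 and 122 with sh76, and 133, 147 and 132 with sh78. Its hairpin libraries were far below scramble, with differences on the log2 scale of −0.76 (SE 0.06) and −0.65 (SE 0.06) (edgeR adjusted p 5.04e-05 and 9.11e-05), and the calls held in all alternatives run. CA2, a cytosolic carbonic anhydrase and the highest of the list at 553 FPKM in scramble cells, had 1180 ± 155, 1121 ± 42.3 and 926 ± 116 CPM (SD, n = 3). Its sh78 change of −0.35 (edgeR adjusted p 0.0744) was called by the block (edgeR adjusted p 8.74e-06), by DESeq2, without the count filter, and without scramble replicate 1 (−0.45) or sh78 replicate 2 (−0.46). DESeq2 called 3 of the list with sh78, against 985 of all 17023 genes. The block called 5 (62.5%) with each hairpin, against 20.4% and 19.9% of all genes. With sh76 3 of these were higher (SLC16A7, SLC16A8 and CA12) and 2 lower. With sh78 2 were higher (SLC16A7 and CA12) and 3 lower. CA12, described after its values were seen, had 9.31 ± 1.29, 14.5 ± 6.03 and 18.6 ± 4 CPM (SD, n = 3). Its sh78 change was 0.99 on the log2 scale (edgeR adjusted p 0.119, with the block 3.14e-06). Medians of the list were −0.03 and 0.04.

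**Figure D4:**
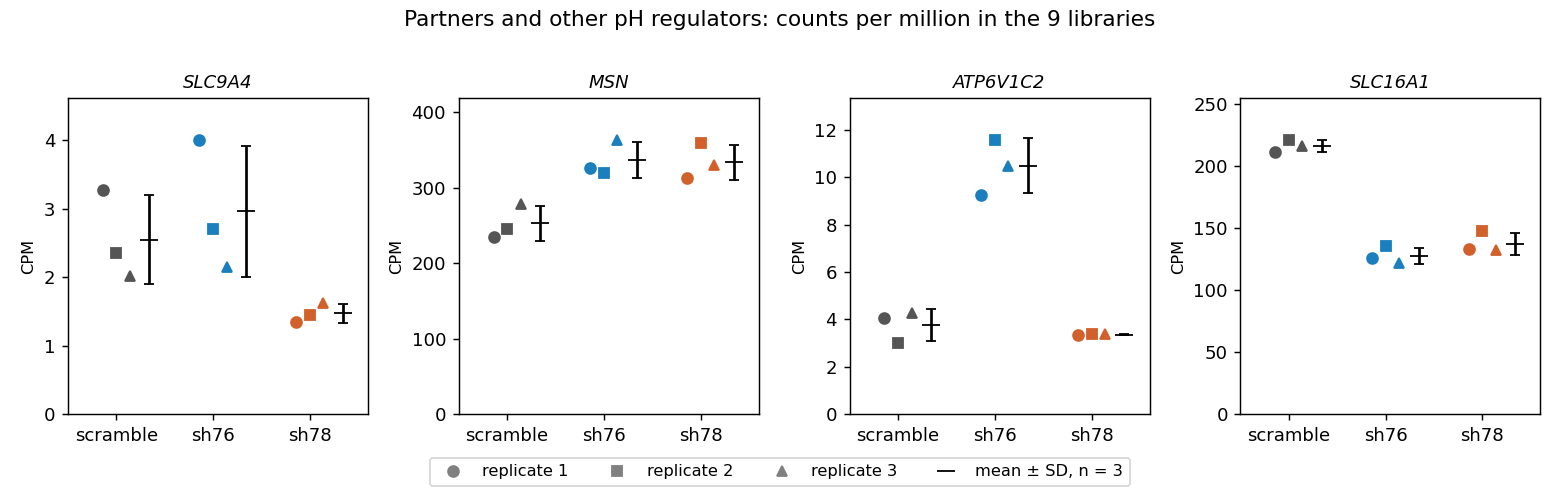
Levels in CPM (linear axes from 0) of SLC9A4, MSN, ATP6V1C2 and SLC16A1 by group. Points are libraries, with a shape for each replicate number, and bars are means with SD over 3 libraries. MSN is higher with each hairpin (313 to 364 CPM) than with scramble (235 to 279 CPM), SLC16A1 is lower with each (122 to 147 against 211 to 221 CPM), and ATP6V1C2 is high with sh76 (9.25 to 11.6 CPM).

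Of 10 tested genes listed by family as bicarbonate transporters, edgeR called 0 with sh76 and 1 (10%) with sh78, against 3.58% and 4.41% of all genes. Whether each of them carries bicarbonate was not examined. With sh76, 3 had an unadjusted p under 0.05 (2959 of all 17023 genes), and DESeq2 and limma on log2(FPKM + 1) each called 0. With each hairpin 0 of the 10 lay wholly above scramble, against 10.8% and 10.2% of all genes. Wholly below lay 3 with sh76 and 2 with sh78, against 11.7% and 11.2% of all genes. The gene called with sh78, SLC4A11, had 111, 92.8 and 81.6 CPM with scramble, 113, 93.4 and 88.5 with sh76, and 73.9, 67.3 and 69.4 with sh78. It fell by 0.44 on the log2 scale with sh78 (SE 0.11, edgeR adjusted p 0.0464), and was 0.05 higher with sh76 (edgeR adjusted p 0.879). The sh78 call was lost without scramble replicate 1 (−0.31) or 2 (−0.46), sh76 replicate 2 (−0.44) or sh78 replicate 1 (−0.48), 2 (−0.41) or 3 (−0.43), and on log2(FPKM + 1) (−0.41) and log2(FPKM + 0.1) (−0.43). SLC4A2, a chloride-bicarbonate exchanger, had 155 ± 14.5, 144 ± 3.36 and 171 ± 9.27 CPM (SD, n = 3) and was not called (edgeR adjusted p 0.523 and 0.325). The block called 3 (30%) of the list with each hairpin, against 20.4% and 19.9% of all genes, SLC4A2 among those with sh78 (edgeR adjusted p 0.0187), and medians were −0.18 and −0.04. Of 8 tested genes of the sodium-potassium pump, which keeps up the sodium gradient that the exchangers use, 0 were called with either hairpin by edgeR, by DESeq2 or by limma on log2(FPKM + 1). At an unadjusted p under 0.05 there were 2 and 1, against 2959 and 2983 of all 17023 genes. Of these 8, 0 lay wholly above scramble with each hairpin, and 3 with sh76 and 1 with sh78 wholly below. The shares over all genes are those given for the bicarbonate list. The block called 3 (37.5%) and 1 (12.5%), against 20.4% and 19.9% of all genes.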

How the data were processed

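The authors deposited raw counts per gene and FPKM values for 58735 genes in 9 libraries. Per the submitters' processing notes, HISAT2 2.0.5, featureCounts 1.5.0-p3 and hg38 were used, and per the labels' protocols the poly-A libraries were non-directional. Their settings are not given in the sources used here. All 58735 identifiers matched GENCODE release 29 (GRCh38) in name, start and end, and the deposited gene length equalled the merged exon length. FPKM equalled counts over that length and a library size within 98.09% to 102.97% of the total.

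Counts were tested with edgeR 4.0.16 (R 4.3.3; filterByExpr, minimum count 10 and total 15, 17023 genes; TMM; robust quasi-likelihood F tests over all 9 libraries; Benjamini-Hochberg over all genes; called under 0.05). DESeq2 1.42.0 and limma 3.58.1 were alternatives. The edgeR procedure was first tested on simulated counts. The 7 genes, the lists and the naming rule were chosen with earlier results of these data known. Named were the 7 genes, GPX3, up to 4 called genes and the most abundant gene of each list, and the 3 protein-coding genes most like SLC9A2 and SLC9A3R1. IL1R1, IL18R1, MFSD9, TMEM182, SLC9A4, SLC9B2, CA12, SLC16A7, SLC16A8, the single markers described and the overlapping genes were singled out after values were seen. Some genes that the rule names are not reported here. Replicates of a group differed beyond sampling noise (chi-square per degree of freedom 5.2 to 11.7). Deviations from group means correlated at 0.14 to 0.39 in the 9 same-numbered pairs of libraries and at −0.31 to 0.06 in the 18 others, so the numbers were read as pairing the samples, and a fit with that block was run. Promoter windows and symbols are from RefSeq (GRCh38.p14).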

Additional observations from a re-analysis of the deposited data

Results flagged for a closer look

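Direct comparison between the hairpin groups called SLC9A2, ATP6V1C2, SLC4A11, GPX3 and, among the neighbours of SLC9A2, IL1R1. SLC9A2 differed by −1.92 on the log2 scale, sh78 minus sh76, with all 3 sh78 libraries below all 3 sh76 libraries. It had been picked with this difference known, so no p-value is given for it. ATP6V1C2 had −1.64 (edgeR adjusted p 0.00026), and its call held in all alternatives run. SLC4A11 had −0.48 (edgeR adjusted p 0.0315), lost without scramble replicate 2 (−0.48), without sh76 replicate 1 (−0.37) or 2 (−0.52) and without sh78 replicate 1 (−0.52), 2 (−0.45) or 3 (−0.47), and on log2(FPKM + 1) (−0.45) and log2(FPKM + 0.1) (−0.47). GPX3, the targeted gene, had −0.86 (edgeR adjusted p 0.0194), and its call held in 4 of 9 fits that each left out 1 library. It was lost without any sh76 library (−0.85, −0.87 and −0.87 without replicates 1, 2 and 3) and without sh78 replicate 2 (−0.81) or 3 (−0.80). IL1R1 had −0.67 (edgeR adjusted p 0.0021). With the replicate block, EZR (−0.30, edgeR adjusted p 1.45e-07), SLC9A4 (−0.99, 0.0042), SLC4A2 (0.24, 0.000103), CA2 (−0.28, 0.00016) and SLC9B2 (0.64, 0.0278) were called between the hairpins as well, where 18.3% of all genes were. EZR was also called by DESeq2, without the count filter and with only the 2 groups in the fit (−0.30 in each). With 3 libraries in a group, single outlying libraries were not tested for.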

How the results depend on the processing

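No fold change of the 7 genes that was called changed direction in any alternative. The replicate block called 3467, 3388 and 3117 genes for sh76, sh78 and sh78 against sh76, in place of 610, 750 and 629, and 19, 16 and 20 genes of the pathway lists in place of 4, 4 and 2. Without the low-count filter these were 1149, 1212 and 1125 genes and 7, 7 and 9 list genes. On log2(FPKM + 1) and on log2(FPKM + 0.1), 1 list gene was called between the hairpins, and the former called 2643 genes for replicate number in place of 4905. Leaving out 1 library gave 237 to 655, 418 to 810 and 273 to 780 genes, and 2 to 4, 2 to 5 and 1 to 4 list genes. All fits that left out 1 library, also those given with the genes, were run without the replicate block. For sh76 the count fell furthest without sh76 replicate 2 (237) or 3 (339) and scramble replicate 2 (313) or 3 (333). For sh78 it fell furthest without scramble replicate 2 (418) or 3 (458) and sh78 replicate 2 (469) or 3 (453). Between the hairpins it fell furthest without sh76 replicate 2 (273) or 3 (368) or sh78 replicate 1 (344), 2 (375) or 3 (351). The causes were not tested. Beside those given with the genes, SLC9A3R1 lost both calls on log2(FPKM + 1) (−0.36 and −0.35) and log2(FPKM + 0.1) (−0.37 and −0.36), and its sh78 call with only the groups compared in the fit (−0.36). SLC9A2 lost both on log2(FPKM + 0.1) (0.81 and −0.88). Depth gives wide counting intervals to the least counted genes, such as 3.45 to 15.8 (exact Poisson, 95%) for the 8 counts of SLC9A5 in sh78 replicate 2.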
